A study of Capra hircus with 12 samples.

Results

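In the skin of cashmere goat embryos, 142 of the 20486 listed genes (0.693%) were higher at embryonic day 55 (E55) than at E45 and higher again at E65, with no overlap between successive stages. They were chosen on these same values: every E55 value lay above every E45 value, every E65 value lay above every E55 value, the E65 mean was at least 1 RPKM (reads scaled by gene length and by the reads of the library) and it was at least 2 times the E45 mean. Genes with a steep last step were left out, that is, genes whose lowest E65 value was at least 3 times the largest earlier value plus 0.1 RPKM. Skin of the mid flank came from 9 untreated embryos of the Inner Mongolia cashmere goat, 3 each at E45, E55 and E65, with 1 library of polyadenylated RNA per embryo. Skin pieces hold all the cell types of the region, and in such bulk samples more cells of a type and more RNA per cell cannot be told apart. None of the identifiers matched a gene symbol, so the markers of keratinocytes, fibroblasts and other cell types were not analysed here, nor was the labelled tissue checked against them.

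Over this period the embryonic epidermis stratifies and begins to keratinise, the dermis lays down matrix, and the epithelium thickens into hair placodes above condensing mesenchyme. Signals pass between these layers in both directions, and WNT, EDA, FGF, BMP and Hedgehog ligands are the classical ones. A gene with a gradual rise in such a tissue may belong to any of these compartments. Of the 142 identifiers, 72 contain the string ENSBTAP, 53 contain ENSP and 15 contain GLEAN, and 1 more each of ENSBTAP and ENSP carries the suffix -D, but none was paired with a gene name in the table used.

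The conditions narrowed the set in steps. Every E55 value exceeded every E45 value in 1235 genes (6.03% of those listed), and every E65 value exceeded every E55 value in 3361 (16.4%). Both held in 205 genes, of which 198 reached the E65 level and 148 also the fold, and the last condition left out 6 more. The mirrored conditions, for genes lower at each stage, gave 275 genes. The number of rising genes depended on the scaling between samples, with 278 after median scaling of the log2 values, of which 141 were among the 142, and 280 after quantile normalization, of which 136 were. The falling genes numbered 191 and 153 under the same scalings, so falling genes outnumbered rising ones on the deposited values and rising genes outnumbered falling ones after either scaling. Leaving out an embryo removes conditions, so the number of rising genes can grow for that reason alone. It was 262 without E45-2, with 141 of the 142 among them, and 239 without E55-3, with all 142. Without E55-1 it was 203, with only 116 of the 142 among them.

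Several genes stood close to the limits. The smallest fold inside the set was 2.04, and the fold nearest to the limit among genes that failed on the fold alone was 1.99. The E65 means nearest to the limit were 1.07 RPKM inside and 0.92 outside. The ratio of the lowest E65 value to the largest earlier value plus 0.1 was 2.97 in the nearest gene kept and 3.06 in the nearest left out. The lowest E55 value was a median of 1.22 times the highest E45 value, and the lowest E65 value a median of 1.33 times the highest E55 value. In 44 genes the first of these ratios was under 1.1, in 24 the second was, and both were at least 1.5 in 17. The separation of neighbouring stages was thus narrow in many of the 142 genes.

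The genes covered a wide range of levels. Their median of the mean RPKM was 7.85 at E45, 13.96 at E55 and 29.2 at E65, whereas it was 7.65, 6.64 and 6.70 over the 16605 genes with a mean of at least 0.1 RPKM, all 142 among them. At E65 the means ran from 1.07 to 6897 RPKM, with 17 genes under 5, 39 from 5 to 20, 46 from 20 to 100 and 40 at 100 or more. At E45, 35 genes had a mean under 1 RPKM. Only 4 were listed at 0 in any E45 embryo and 0 in all 3 of them, so nearly all had a value above 0 in every embryo.

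The most abundant of them, GOAT_ENSP00000224237_gene on chromosome 13, had the second highest E65 mean of all listed genes. It measured 1808.82, 2372.89 and 2224.24 RPKM in E45-1, E45-2 and E45-3, 3502.59, 2414.24 and 2379.35 in the E55 embryos in the same order, and 6825.65, 6817.49 and 7048.72 in the E65 embryos. The stages did not overlap, but E55-2 and E55-3 lay just above the highest E45 embryo, and E55-1 stood apart from them. The means were 2135 ± 292 RPKM at E45, 2765 ± 639 at E55 and 6897 ± 131 at E65 (SD, n = 3 each), 3.23-fold from the first to the last. On the log2(RPKM + 0.1) scale the change was 1.70 (standard error 0.20), and 1.34 after quantile normalization.

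The gene with the largest change, goat_GLEAN_10004749_gene on chromosome 19, went from near 0 to the 46th highest E65 mean of all genes. It measured 0.36, 0.05 and 2.57 RPKM in the E45 embryos, 490.38, 263.59 and 54.73 in the E55 embryos and 1757.34, 1844.17 and 673.33 in the E65 embryos. The E45 values lay far below the rest, whereas E65-3, the lowest E65 embryo, was near E55-1, the highest E55 embryo, and E55-3 was the lowest at E55. The means were 0.993 ± 1.37 RPKM at E45, 270 ± 218 at E55 and 1425 ± 652 at E65 (SD, n = 3 each). The log2 change from E45 to E65 was 11.15 (standard error 1.05), 12.27 without E45-3 and 10.19 without E45-2.

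**Figure D1:**
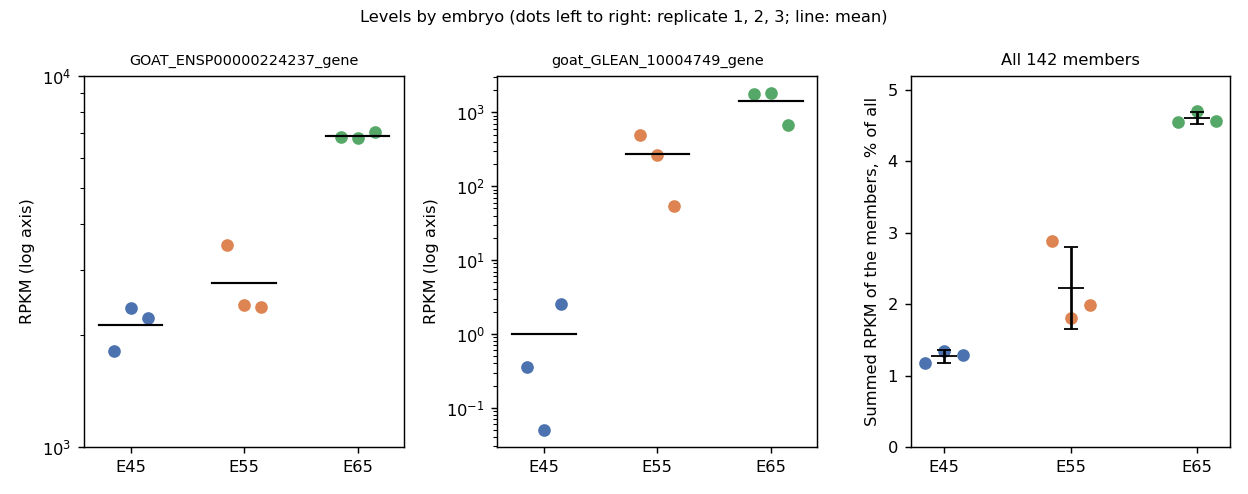
RPKM of the most abundant gene (left, log axis) and of the gene with the largest change (middle, log axis), and the summed RPKM of the 142 genes as a percentage of all RPKM (right), by stage, with 1 dot per embryo and a line at the mean (the bars at the right are the SD, n = 3). E55-1 is the highest E55 embryo in all 3 panels, at 3502.59 RPKM, 490.38 RPKM and 2.88%.

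Genes at fixed places in the order of the fold show the more usual size. At the lowest fold, a gene on chromosome 20 measured 2.29, 2.45 and 1.92 RPKM in the E45 embryos, 3.48, 2.74 and 2.89 in the E55 embryos and 4.43, 4.88 and 4.28 in the E65 embryos. At the middle of the order, a gene on chromosome 3 measured 1.11, 1.18 and 0.96 RPKM at E45, 2.97, 1.73 and 1.8 at E55 and 4.03, 4.12 and 4.22 at E65, a fold of 3.81. In both genes E55-1 was the highest and E55-2 the lowest of the E55 embryos. At the upper quartile, a gene on chromosome 6 measured 15.38, 22.8 and 16.81 RPKM at E45, 55.17, 32.25 and 23.15 at E55 and 156.43, 174.71 and 128.39 at E65, a fold of 8.36. There E55-3 was the lowest E55 embryo and lay close to E45-2.

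Other members with high levels or large changes were looked up after their values had been seen. The second most abundant, on chromosome 2, measured 676.75, 660.76 and 617.71 RPKM at E45, 2188.75, 1093.49 and 1464.71 at E55 and 3136.06, 3779.45 and 4106.4 at E65. E55-1 was again the highest and E55-2 the lowest of its stage, well above every E45 embryo. The fifth most abundant, on chromosome 18, measured 73.11, 42.46 and 71 RPKM at E45, 832.03, 419.88 and 147.56 at E55 and 1097.88, 944.69 and 874.03 at E65, a fold of 15.6. E55-1 was almost at the E65 level and E55-3 nearer to E45. By size of the change, the gene after the one on chromosome 19 was on chromosome 18, with 0.21, 0.07 and 0.15 RPKM at E45, 7.64, 3.28 and 1.02 at E55 and 25.49, 23.17 and 10.8 at E65. The next, on chromosome 4, had 0.54, 0.62 and 0.6 RPKM at E45, 24.4, 11.6 and 2.64 at E55 and 49.06, 54.91 and 45.88 at E65. In each of these genes E55-1 was the highest of its stage, and in the last 3 of the 4 the order at E55 was E55-1, E55-2, E55-3. The third most abundant member, on chromosome 7, differed, with 1679.63, 1182.98 and 1968.58 RPKM in E55-1, E55-2 and E55-3.

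Together the 142 genes made up a growing part of the transcript pool. Their summed RPKM was 1.17%, 1.34% and 1.29% of the total in E45-1, E45-2 and E45-3, 2.88%, 1.80% and 1.99% in the E55 embryos and 4.56%, 4.71% and 4.57% in the E65 embryos. The mean share was 1.27 ± 0.0870% at E45, 2.22 ± 0.575% at E55 and 4.61 ± 0.0839% at E65 (SD, n = 3 each), so the spread at E55 exceeded that of the other stages. A few genes carried most of the share. Without the most abundant one the means were 0.880%, 1.73% and 3.44%, and without the 10 most abundant they were 0.390%, 0.740% and 1.52%. The direction of these shares was fixed by the choice of the genes.

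The median fold of the E65 mean over the E45 mean was 3.81, with quartiles of 2.75 and 8.26 and a maximum of 1435. Between 2 and 4-fold were 73 genes, between 4 and 8-fold 33, between 8 and 16-fold 14 and at 16-fold or more 22. The 36 genes at 8-fold or more started low, with a median E45 mean of 0.56 RPKM, and had medians of 3.17 at E55 and 13.8 at E65. In 25 of these 36 the E45 mean was under 1 RPKM, against 5 of the 73 genes under 4-fold, whose medians were 13.9, 23.0 and 38.4 RPKM at the 3 stages. The fold divides by the E45 mean. Low E45 means at 8-fold or more are thus partly set by the way the classes were formed, and nothing is read from them.

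On the log2(RPKM + 0.1) scale, where changes of low genes are understated, the median change was 0.86 from E45 to E55, 1.08 from E55 to E65 and 1.90 over both steps. Over all fitted genes the medians were -0.12, 0.06 and -0.07. Median scaling, which moved the medians of all fitted genes to 0.08, 0.04 and 0.11, moved the median change of the 142 genes over both steps to 2.08. Under median scaling the median steps were 1.05 and 1.06, under quantile normalization 1.06 and 1.02, without E55-1 0.67 and 1.26 and without E55-2 1.03 and 0.99, so which median step was larger depended on these choices. On the deposited values the first step was larger in 60 genes and the second in 82. Between the means of E45 (0%) and E65 (100%), the E55 mean lay at a median of 48.3% (quartiles 39.5% and 56.1%), from 18.2% to 89.2% in single genes. It was under 33.3% in 15 genes, over 66.7% in 8 and between these in 119. The median was 36.5% without E55-1 and 53.0% without E55-3. On this measure the falling genes had a median of 52.9%. The conditions put every E55 value between those of E45 and E65, and the last one left out genes with a steep last step. The signs of both steps are thus fixed by the choice, and the positions are partly set by it.

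**Figure D2:**
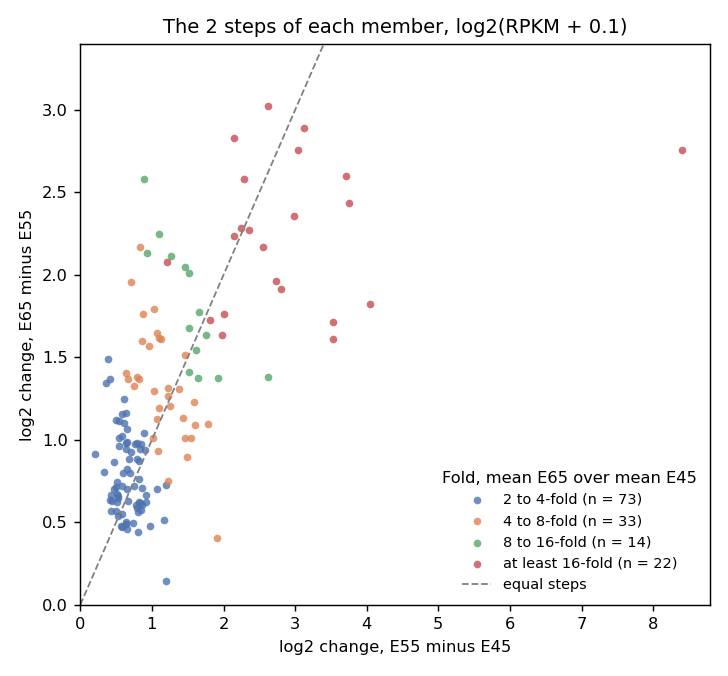
Log2 change from E45 to E55 (horizontal axis) and from E55 to E65 (vertical axis) of each of the 142 genes on log2(RPKM + 0.1), coloured by fold class, with a dashed line where both steps are equal. Of the genes, 82 lie above the line and 60 below, and the gene on chromosome 19 with a log2 change of 11.15 over both steps lies alone at the right.

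Calls by limma were counted beside those of all genes (adjusted p under 0.05 after Benjamini-Hochberg adjustment, log2 change of at least 1). Of the 142 genes, 18 (12.7%) were called increased in E55 vs. E45, against 0.397% of the 16605 genes fitted. In E65 vs. E55 limma called 48 (33.8%), against 2.11%. All 142 were called in the comparison of E65 vs. E45, against 4.9%. In both steps 9 of the 142 were called, and the share of all fitted genes called in both is not given here. As the choice of the genes used these contrasts, nothing is read from the differences to the background. The calls of single steps changed when single embryos were left out, also E65 embryos, which are not in E55 vs. E45 but enter the estimate of spread. The 18 genes of E55 vs. E45 became 35 when E45-1 was left out, 0 for E45-2 and 3 for E45-3. They became 1 when E55-1 was left out, 2 for E65-1, 6 for E65-2 and 3 for E65-3. Where none was left, without E45-2, 121 genes had an unadjusted p under 0.05 in limma and were higher at E55. Without E65-1, E65-2 or E65-3 the median log2 change of this comparison stayed at 0.86, and 129, 127 and 127 genes had an unadjusted p under 0.05. The conditions favour a low unadjusted p in these genes. The shares of all fitted genes are not given here, so nothing is read from these counts. The 48 genes of E65 vs. E55 became 82 when E55-1 was left out, 23 for E55-2, 19 for E55-3, 27 for E65-1 and 24 for E65-2. For E65 vs. E45 the fits with 1 embryo left out called 135 to 142 of the genes.

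The embryos of E55 were not equally advanced along the rise. Placed between the E45 mean (0%) and the E65 mean (100%) of each gene, E55-1 had a median of 70.5%, E55-2 of 36.0% and E55-3 of 36.4%. E55-1 was the highest E55 embryo in 129 of the 142 genes (90.8%), against 43.5% of all fitted genes and 560 (83.3%) of 672 other genes that rose from E45 to E65, which are described further on. The count of 129 became 116 after median scaling and 127 after quantile normalization. The conditions for the genes set no order within a stage. The 142 genes share their libraries and are not replicates, so this describes 3 embryos, and with 1 library per embryo the age of an embryo within its stage, its tissue piece and its library cannot be told apart.

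The lower embryos at E55 changed places with the size of the rise. In the 36 genes at 8-fold or more, the median positions were 78.2% in E55-1, 54.7% in E55-2 and 24.6% in E55-3. E55-3 was the lowest in 34 of them (94.4%), and 32 followed the order E55-1, E55-2, E55-3. In the 73 genes under 4-fold, the positions were 65.5%, 28.4% and 41.7%, E55-2 was the lowest in 51 (69.9%), and 46 followed the order E55-1, E55-3, E55-2. The genes between 4 and 8-fold lay between, with positions of 69.7%, 39.0% and 35.9%. Over all fitted genes, E55-2 was the lowest in 36.9% and E55-3 in 36.1%. After median scaling E55-3 was the lowest in 34 of the 36 genes and E55-2 in 60 of the 73, and after quantile normalization in 34 and 57. Genes under 4-fold have a narrow gap for the E55 values, so a low E55-3 value could leave a gene out. The change of places is thus partly set by the choice. In the 448 other rising genes under 4-fold, described further on, the positions were 59.0%, 13.4% and 8.71%. There E55-2 was the lowest in 205 and E55-3 in 221.

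**Figure D3:**
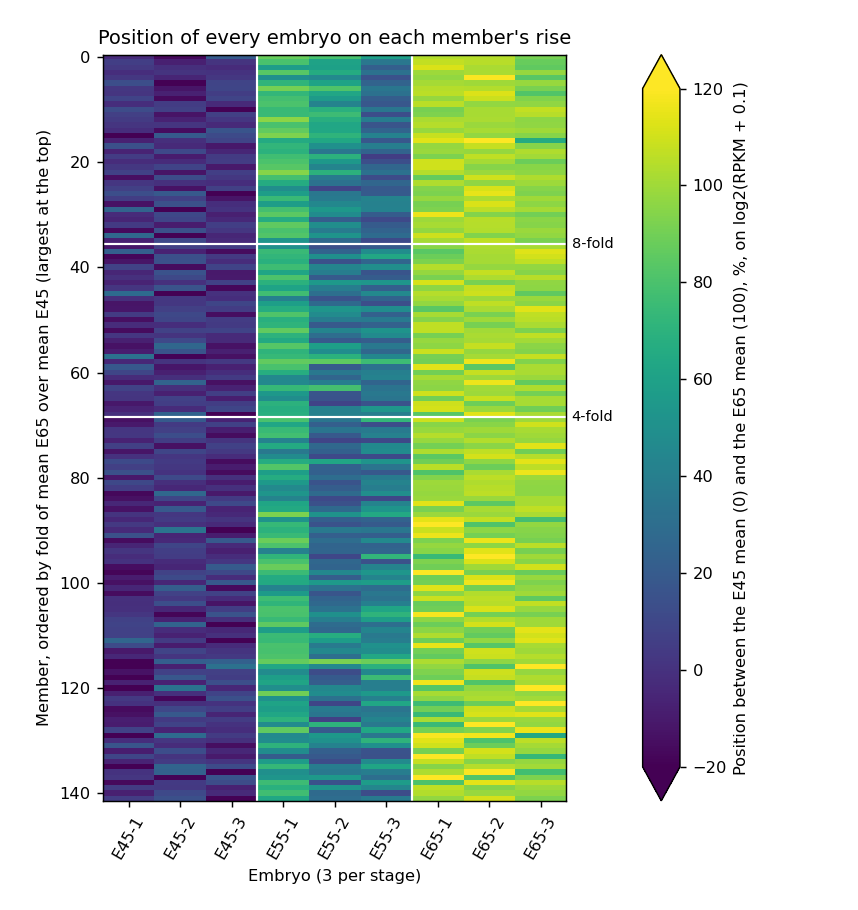
Position of each embryo (columns) between the E45 mean (0%) and the E65 mean (100%) on log2(RPKM + 0.1) for each of the 142 genes (rows, largest fold at the top), with white lines between stages and at 8-fold and 4-fold. Values beyond the ends of the colour scale take the end colours. E55-1 is brightest at E55 through most of the rows, and E55-3 is darkest above the 8-fold line, where its median is 24.6%.

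In amounts, E55-1 had a median of 4.35 times the level of E55-3 in the genes at 8-fold or more, on RPKM + 0.1, and 1.21 times in those under 4-fold, against 1.07 over all fitted genes. E55-2 had 2.56 times the level of E55-3 in the former and 0.920 times in the latter. The 36 steepest genes held 0.418% of the RPKM of E55-1, 0.195% of E55-2 and 0.0705% of E55-3. The ratio of the highest to the lowest E55 embryo had a median of 4.37 in the genes at 8-fold or more, 1.98 between 4 and 8-fold and 1.47 under 4-fold, against 1.38 over all fitted genes. Every E55 value had to lie between the E45 and E65 values of its gene, so a gene with a small fold could not have a large ratio, and the order of these classes is partly set by the choice. Over all 142 genes the median ratio was 1.69 at E55, against 1.36 at E45 and 1.28 at E65. In the 36 at 8-fold or more it was 4.37 at E55, against 1.61 at E45 and 1.49 at E65. A gene was kept only if its lowest E65 value was under 3 times its highest E55 value plus 0.1 RPKM. In steep genes this can favour a high E55 embryo, so the contrast between stages may be partly set by the choice. E65-3 was the lowest E65 embryo in 21 of the 36 genes (58.3%), against 27.2% of all fitted genes. Among 93 other genes that rose at least 8-fold, it was the lowest in 74 (79.6%). The same condition can favour genes with a low E65 embryo, so nothing is read from the difference to all fitted genes.

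The genes' median deviations from their stage means were largest at E55. The median on the log2 scale was 0.39 in E55-1, -0.20 in E55-2 and -0.19 in E55-3, and closer to 0 in every E45 and E65 embryo. With the stage means subtracted, the median Pearson's r between pairs of genes was 0.442 over the 9 samples, against 0.0784 for pairs of fitted genes. The correlation was not computed per stage, as each has 3 embryos. It was 0.673 among the 36 genes at 8-fold or more, 0.433 among the 73 under 4-fold and 0.332 between both classes. All pairs share the same libraries, so the values are descriptions. With the stage differences kept, correlations between these genes are high by the way they were chosen, and they are given only to place the 2 named genes. The most abundant gene had a median r of 0.915 with the other 141 genes and a highest r of 0.997, and 37 genes reached 0.95, 6 of them at 8-fold or more. For the gene on chromosome 19 the median was 0.881 and the highest 0.979, and 13 genes reached 0.95, 7 of them at 8-fold or more.

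Genes that rose from E45 to E65 but failed on the E55 values formed the closest comparison. When the E55 values no longer had to lie between E45 and E65, 814 genes met the other conditions. The condition on a steep last step was kept, and its largest earlier value can be an E55 value. The 142 were 17.4% of the 814, and the other 672 had an E55 value outside the gap between E45 and E65. At least 1 E55 embryo was at or below an E45 embryo in 530 of the 672, at least 1 was at or above an E65 embryo in 259, and both held in 117. E55-3 was at or below an E45 embryo in 451 (67.1%), E55-2 in 363 (54.0%) and E55-1 in 137 (20.4%). E55-1 was instead at or above an E65 embryo in 241 (35.9%), against 66 for E55-2 and 52 for E55-3. These genes differ from the 142 by the place of their E55 values alone, so the counts say only which embryos missed the gap. The condition on a steep last step, kept for both sets, also limits which E55 values occur.

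These 672 genes had a median log2 change of 0.50 from E45 to E55 and 1.15 from E55 to E65, and their E55 mean lay at a median of 31.5%. Genes at 8-fold or more made up 13.8% of them (93), against 25.4% (36) of the 142. A large fold gives a wide gap for the E55 values to fall in, and the condition on a steep last step left out genes with a large last rise. This difference is thus partly set by the choice. Of the 672, 1 had no fold because it was listed at 0 in all E45 embryos. Among the 93 genes at 8-fold or more, E55-3 was the lowest in 76 (81.7%) and the median positions were 88.6%, 52.1% and 19.7% in E55-1, E55-2 and E55-3. Among the 448 under 4-fold, E55-2 was the lowest in 205 and E55-3 in 221. These genes were set apart by their E55 values, so the orders are given side by side without a comparison. In the 275 falling genes E55-1 was the lowest E55 embryo in 174 (63.3%), which is also the embryo farthest along.

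**Figure D4:**
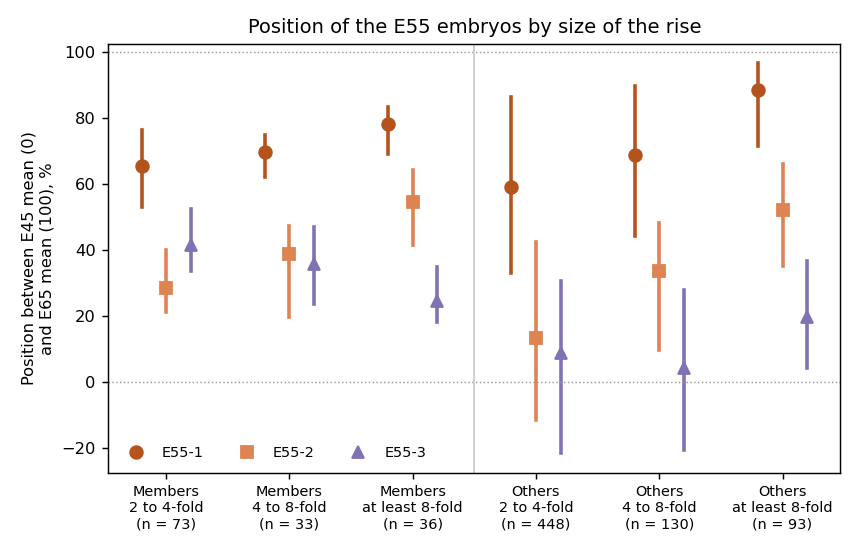
Median position (points) and quartiles (bars) of E55-1, E55-2 and E55-3 between the E45 mean (0%) and the E65 mean (100%), in %, for the 142 genes (left) and the other genes that rose from E45 to E65 (right), by fold class. E55-1 is highest in all 6 classes, and E55-3 lies below E55-2 farthest, on each side, in the class at 8-fold or more.

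The value of a left-out embryo took no part in choosing the genes it was placed in. The conditions themselves were set with earlier results of these data known. Each embryo was left out in turn, the conditions were applied to the other 8, and the left-out value was then placed. The left-out value fell in place (for E45 below every E55 value, for E55 between the other stages, for E65 above every E55 value) in 83.3% of 168 genes for E45-1, 54.2% of 262 for E45-2 and 88.7% of 159 for E45-3. For the E55 embryos it did so in 57.1% of 203 genes for E55-1, 71.6% of 197 for E55-2 and 59.4% of 239 for E55-3. For the E65 embryos the shares were 86.2% of 167, 89.0% of 154 and 71.4% of 192. The lowest shares were those of E45-2, E55-1 and E55-3. The placements differ between stages, as only an E55 value had a limit on both sides.

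Among all fitted genes, the same placement held in 14.996% to 31.8% for the E45 embryos, 3.92% to 5.84% for the E55 embryos and 36.2% to 37.8% for the E65 embryos. Those genes need meet none of the other conditions, and need have no gap between E45 and E65 for an E55 value to fall in, so nothing is read from the difference. Of the 814 genes with such a gap and no steep last step, 53.6% held E55-1 inside the gap, 47.3% E55-2 and 38.2% E55-3. The shares above were 57.1%, 71.6% and 59.4%. For the 814, the condition on a steep last step used every E55 embryo, also the one placed, so these shares are not fully comparable. The 814 include the 142, and no test was made. For the E55 embryos the misses went in different directions. When E55-1 was left out, its value was too high in 86 genes and too low in 1. When E55-2 or E55-3 was left out, the value was too low in 52 and 94 genes and too high in 4 and 3. The misses thus fell on the side on which each embryo lay among the 142 genes. After median scaling the lowest share over the 9 embryos was 67.0% and after quantile normalization 60.4%.

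**Figure D5:**
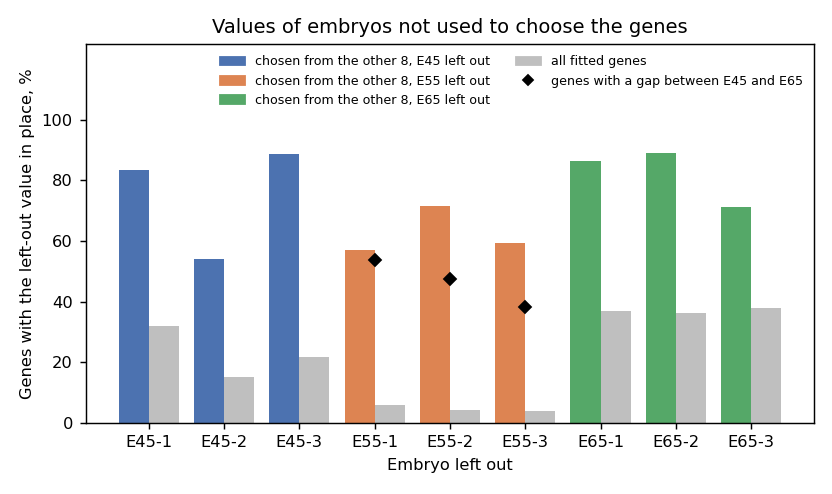
Percentage of genes in which the value of a left-out embryo fell in place, with 1 pair of bars per embryo. Bars coloured by stage are genes chosen from the other 8 embryos, and grey bars are all fitted genes. For the E55 embryos, a diamond marks the 814 genes with a gap between E45 and E65 and no steep last step. The coloured bars run from 54.2% for E45-2 to 89.0% for E65-2, and for E55-1 the diamond (53.6%) is close to the bar (57.1%).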

How the data were processed

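The deposited RPKM values of 20486 genes in 9 embryos (E45, E55 and E65, grouped by the age in the labels) were used, rounded to 2 decimals by the authors, whose methods call them FPKM. Per the methods, the authors cleaned the reads (FASTX-Toolkit), mapped them on the goat genome by TopHat (TopHat2 in the processing notes; the version is not given in the sources used here) and used only reads with a single genome location. Gene families with near-identical copies may thus be undercounted. RPKM is a share of the library, so a rise of abundant genes lowers the others. The authors tested genes with edgeR, which needs counts. The study gives read totals per library, which were not used here. The reads behind single values could not be recovered from the table: of 2168 low genes, 16.7% gave whole multiples of their smallest value within 0.1. Hence no counting intervals are given.

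The members and lists were chosen with earlier results of these data known. Values were fitted as log2(RPKM + 0.1) with limma 3.58.1 in R 4.3.3, stage as the only factor, a mean-variance trend, genes with a mean of at least 0.1 RPKM and Benjamini-Hochberg adjustment over all 16605. The step was tested on simulated data. The rest was done in Python 3.11.15 (with pandas 2.3.3, numpy 2.4.6 and, for plots, matplotlib 3.10.9). The positions, orders and left-out placements are counts without tests. Named by identifier were the member with the highest E65 mean and that with the largest log2 change, as 0 of the 20486 identifiers matched a symbol in the RefSeq gene table. For this reason gene lists (keratinisation, epidermal regulators, WNT, TGF-beta and BMP, FGF, Hedgehog, NOTCH, EDA, dermal matrix), cell type markers and sequences were not analysed here. The small RNA table, from pools of embryos, was not used. Alternatives were other pseudocounts, filters, scalings, limits of the rule, eBayes without the trend, a replicate block, and each embryo left out in turn.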

Additional observations from a re-analysis of the deposited data

How the results depend on the processing

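The number of stepwise genes, 142, became 278 with median scaling and 280 with quantile normalization, and ran from 154 to 262 when 1 embryo was left out. The genes called by limma in E55 vs. E45, 18, became 41 with median scaling, 35 with quantile normalization, 5 without the mean-variance trend and 1 with only the 6 samples of both stages fitted, and ran from 0 to 35 when 1 embryo was left out. Those called in E65 vs. E55, 48, became 73 with the adjusted p alone and ran from 19 to 82 when 1 embryo was left out. The 275 falling genes became 191 with median scaling and 153 with quantile normalization. Scalings of the falling genes, the E55 orders and the left-out shares were chosen after seeing the data. With a replicate block the counts were 12, 47 and 142. The labels do not say whether embryos with the same number share anything beyond it. Correlations of deviations between such embryos ran from -0.30 to 0.41 over 9 pairs, and a shared factor was not tested. Median scaling shifted E45-2 by -0.25, E45-3 by -0.12, E55-3 by 0.15 and E65-2 by 0.12 (log2). Of the other values, 13 were counted as moved and 82 were not, and none changed sign. Values not counted as moved could still shift, such as the median E55 position, 48.3% with all embryos and 36.5% without E55-1. The cause of these changes was not tested. Neighbouring members on a chromosome were not run, as the table gives no positions. The reads behind the lowest values were not recovered, and 3 embryos per stage limit every comparison.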

Other observations

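The 142 genes were on all of the 30 listed chromosomes, 1 to 29 and X. The most were on chromosome 3, with 14 of its 1160 listed genes (1.21%), chromosome 10, with 11 of 855 (1.29%), and chromosome 1, with 10 of 865 (1.16%), against 0.693% of all listed genes. Of the genes at 8-fold or more, chromosome 19 held 6 among its 9 members and chromosome 18 held 4 among 7, while chromosome 10 held 1 among 11 and chromosome 7 held 0 among 8. These are counts without a test, and neighbouring genes were not looked for.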
